A study of Mus musculus with 20 samples.

Results

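Interferon response and antigen processing genes were followed across 7 groups of sorted mouse mammary epithelial cells. A list of 40 gene symbols was matched to the array's annotation. A gene was used where a probe set named it and no other gene, and where several did, the one with the highest mean level across all arrays was taken. This gave 37 measured genes of the 19937 genes on the arrays. Isg15 and Gbp2 had only probe sets that name several genes, and Ifi44 was not listed, so none of these 3 was used here. The 37 genes were 8 IRF and STAT transcription factors, 2 RNA sensors, 4 genes of the IFIT and ISG15 system, 4 OAS genes, 2 MX GTPase genes, 2 nucleotide-modifying enzyme genes, 4 membrane restriction factors, 4 other interferon-induced genes, 3 immunoproteasome subunits, and 4 genes of peptide loading and the MHC class I light chain.

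All mice carried K8-creERT2, a tamoxifen-inducible Cre driven by the keratin 8 promoter, on a mixed FVB/CD-1 background, and all were injected with tamoxifen 4 weeks before the cells were taken. Control mice carried no other allele in the labels, and mutant mice also carried PIK3CA H1047R, an activated catalytic subunit of PI3K, with GFP marking the cells that express it. The basal gate held CD45-negative cells that were CD24 low and Sca1 negative, and the luminal gates held CD24 high cells split by Sca1. In each of 3 independent sortings, glands from 2 to 3 mice of a genotype, synchronized in estrus, were pooled, and RNA of 2000 cells per sample was amplified. Control cells were GFP-negative in all 3 gates (3 arrays each). Mutant cells were GFP-positive basal (3 arrays), GFP-negative basal (3 arrays), GFP-positive Sca1-negative luminal (3 arrays) and GFP-positive Sca1-positive luminal (2 arrays, replicates 1 and 3). In the luminal gates and in the comparison of GFP-positive basal with control basal cells, the mutant and the choice of GFP-positive cells cannot be told apart.

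Type I interferons signal through the receptor kinases JAK1 and TYK2 to transcription factors, STAT2 and IRF9 among them, that bind the interferon-stimulated response element (ISRE) in the promoters of antiviral genes. Type II interferon signals through JAK1 and JAK2, acts on promoters that hold the gamma-activated site (GAS) and induces IRF1. Among the targets of both are the immunoproteasome subunits, which replace constitutive proteasome subunits and change the peptides that are cut, and the TAP transporter, which moves those peptides to MHC class I molecules. Sca1, the surface protein used for the luminal gates, is encoded by Ly6a, itself an interferon-inducible gene, which was not used here.

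RefSeq promoter windows (build GRCm38.p6, from 250 bases before to 50 bases after the annotated start) were found for 29 of the 37 genes. The ISRE core was searched as GAAA, any 2 bases and GAAA, and the GAS as TTC, any 3 bases and GAA, on both strands, and matches of the 2 motifs may overlap. The ISRE core stood in the windows of 11 of the 29 genes (37.9%), against 3.99% of the 27025 genes with a window. These were Ifit1, Ifit3, Irf2, Stat2, Oas3, Rsad2, Ifih1, Bst2, Ifitm2, Ifitm3 and B2m. The GAS stood in 8 of the 29 (27.6%), against 9.55% of all genes: Ifit2, Irf1, Irf2, Irf8, Bst2, Ifi35, Ifitm3 and Psmb8. A match is a description of the letters and was not tested as a binding site. The windows below belong to genes whose levels separated the groups, with capitals marking every letter that lies in a match to either motif. Ifitm2 (chr7:140955912-140956211, minus strand) and Ifitm3 (chr7:141010695-141010994, minus strand) are the interferon-induced transmembrane genes that differed between mutant and control cells. Bst2 (chr8:71537423-71537722, minus strand), Irf1 (chr11:53769764-53770063, plus strand, the first of 2 windows) and Psmb8 (chr17:34197945-34198244, plus strand) separated basal from luminal arrays. The window of Tap1 (chr17:34187306-34187605, plus strand) overlaps that of Psmb9, which runs on the other strand, over 275 of 300 bases, and neither window holds a match.
Ifitm2: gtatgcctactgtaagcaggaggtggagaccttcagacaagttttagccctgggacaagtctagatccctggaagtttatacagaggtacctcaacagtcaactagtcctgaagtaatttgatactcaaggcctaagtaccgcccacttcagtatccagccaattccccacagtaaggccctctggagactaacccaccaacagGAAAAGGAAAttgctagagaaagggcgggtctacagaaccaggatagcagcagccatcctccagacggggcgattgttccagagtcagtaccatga
Ifitm3: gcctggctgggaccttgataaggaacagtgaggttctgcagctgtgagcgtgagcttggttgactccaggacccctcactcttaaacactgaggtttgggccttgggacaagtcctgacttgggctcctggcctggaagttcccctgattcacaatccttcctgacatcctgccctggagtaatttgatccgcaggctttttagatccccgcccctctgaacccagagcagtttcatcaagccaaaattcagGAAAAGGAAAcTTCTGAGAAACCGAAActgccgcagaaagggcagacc
Bst2: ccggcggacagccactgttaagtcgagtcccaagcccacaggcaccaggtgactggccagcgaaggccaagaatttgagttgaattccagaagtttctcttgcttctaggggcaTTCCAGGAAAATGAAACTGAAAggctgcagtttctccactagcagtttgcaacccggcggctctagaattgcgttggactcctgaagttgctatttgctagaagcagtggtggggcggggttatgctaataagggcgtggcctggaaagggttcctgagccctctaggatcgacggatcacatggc
Irf1: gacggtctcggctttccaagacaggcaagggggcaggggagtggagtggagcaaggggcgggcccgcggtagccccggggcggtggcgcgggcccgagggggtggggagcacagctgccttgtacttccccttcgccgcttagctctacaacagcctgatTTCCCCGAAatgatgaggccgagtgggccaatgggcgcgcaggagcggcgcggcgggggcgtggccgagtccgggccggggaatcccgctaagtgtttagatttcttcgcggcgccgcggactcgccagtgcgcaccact
Psmb8: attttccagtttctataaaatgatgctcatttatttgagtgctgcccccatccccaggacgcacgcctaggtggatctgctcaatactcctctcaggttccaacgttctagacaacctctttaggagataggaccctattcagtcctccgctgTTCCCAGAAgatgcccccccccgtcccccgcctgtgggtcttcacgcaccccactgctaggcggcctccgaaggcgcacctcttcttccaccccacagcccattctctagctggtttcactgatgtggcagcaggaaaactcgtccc
Tap1: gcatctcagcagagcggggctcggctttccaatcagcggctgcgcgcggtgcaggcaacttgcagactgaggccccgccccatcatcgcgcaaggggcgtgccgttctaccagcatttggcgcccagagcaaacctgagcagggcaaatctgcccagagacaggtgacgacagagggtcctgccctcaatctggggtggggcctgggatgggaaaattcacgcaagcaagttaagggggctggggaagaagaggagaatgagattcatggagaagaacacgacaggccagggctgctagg
The Ifitm3 window held 2 ISRE cores and a GAS that overlaps one of them, all in the 50 bases after the annotated start. The Bst2 window held 2 overlapping ISRE cores and an overlapping GAS.

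Levels are the deposited log2 values, on which 1 unit is a 2-fold difference, and values of different probe sets were not set against each other. Array medians lay between 3.66 and 3.80, and arrays of a group correlated with r between 0.931 and 0.971 over probe sets. GFP-positive basal replicate 2 and control Sca1-positive luminal replicate 2 had the narrowest spread of values (SD 1.71 and 1.72, against 1.78 to 1.88 on the 18 other arrays). The mean of 8 basal markers was 9.08 to 9.71 on basal arrays and 4.40 to 5.35 on luminal arrays, and that of 7 luminal markers was 7.12 to 8.63 and 9.83 to 10.2. Of 20 immune cell markers 19 were measured, and their mean was 3.42 to 3.62 on every array, below the array medians. The mean of 7 endothelial markers was 3.31 to 4.19, and that of 7 fibroblast markers 4.03 to 4.87.

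The genes varied more across the 7 groups than a typical gene. The median range of the group means was 0.85 for the 37 genes and 0.43 for all genes, and the range exceeded 1 in 15 of the 37 (40.5%) against 20.9% of all genes. The 37 genes also had a higher median level, 4.22 against 3.86 for all genes. The part of level in the wider ranges was not tested. The variation was uneven over the roles. All 3 measured IFIT genes, all 4 OAS genes and both MX genes, which include the classical antiviral effectors, had ranges under 0.5. Irf3, Irf5, Irf8, Dhx58, Parp14 and Cmpk2 completed the 15 genes with such ranges. Array values of the 15 lay between 2.51 and 5.82, the upper end being Irf3. All array values of the 3 IFIT genes, both MX genes, Oas3, Dhx58 and Cmpk2 lay below every array median (3.66 to 3.80). The narrow ranges of these low genes therefore carry little information. The heat map of centred levels shows the 15 genes as pale rows, and the 6 genes with ranges over 2 were Psmb9, Irf1, Psmb8, Bst2, Tap2 and Rsad2.

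**Figure D1:**
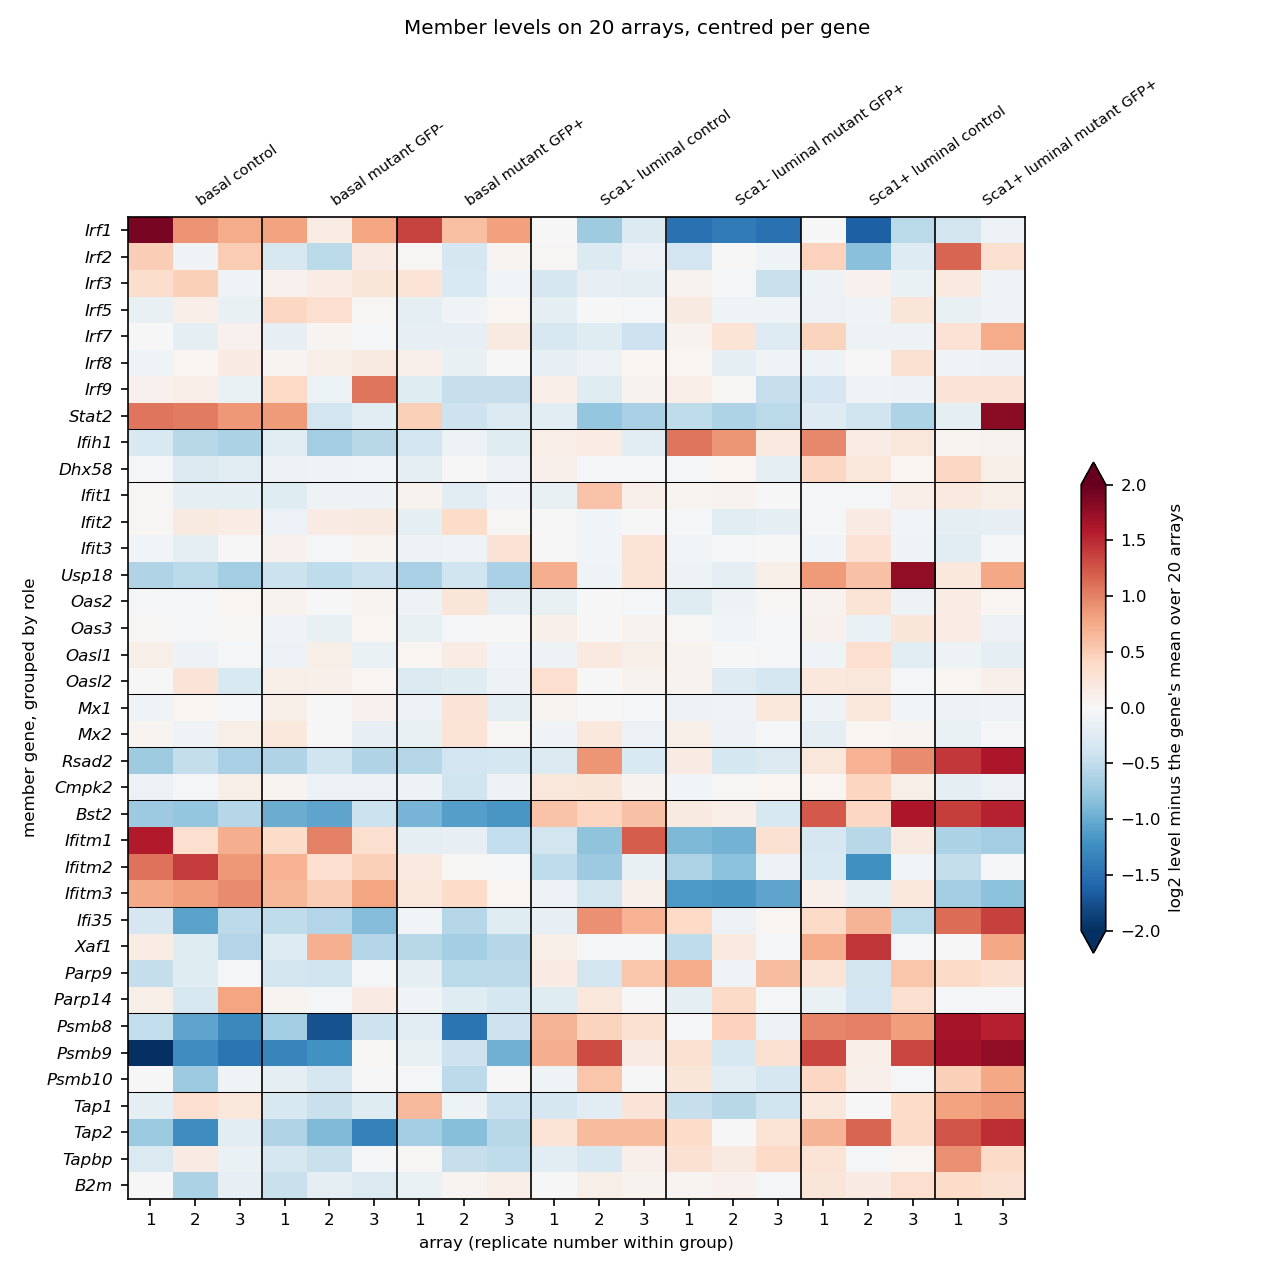
Heat map of 37 genes (rows, grouped by role) on 20 arrays (columns, grouped by sort and numbered by replicate); colour is the log2 level minus the gene's mean over the 20 arrays. Irf1 and Ifitm2 are higher on all 9 basal arrays than on all 11 luminal arrays, and Psmb8, Tap2, Bst2 and Usp18 are lower.

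Basal and luminal arrays of both genotypes separated fully for 6 of the 37 genes. The 9 basal arrays lay above all 11 luminal arrays for 2 genes, Irf1 and Ifitm2 (2.09% of all genes), and below them for 4 genes, Usp18, Bst2, Psmb8 and Tap2 (1.83% of all genes). In limma, control basal cells differed from control Sca1-negative luminal cells in 10 of the 37 genes (9.89% of all genes were called), 4 higher (4.67%) and 6 lower (5.22%). Against control Sca1-positive luminal cells 13 genes differed (12.3% of all genes), 4 higher (5.94%) and 9 lower (6.32%). Both comparisons use the same control basal arrays. The 4 genes higher in control basal cells were Irf1, Stat2, Ifitm2 and Ifitm3 in both comparisons.

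**Figure D2:**
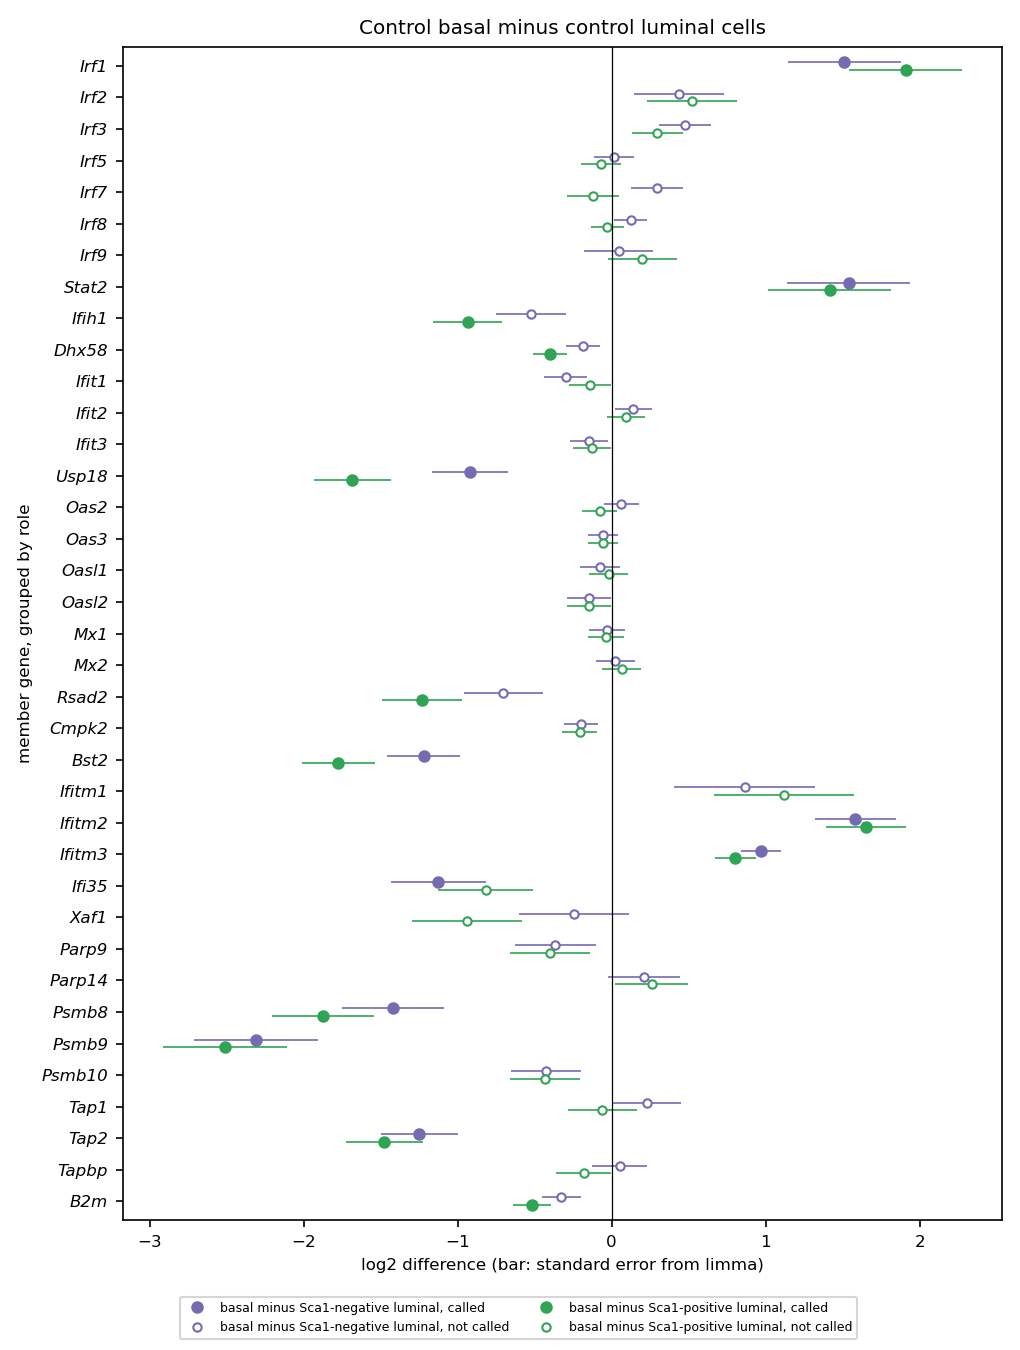
Log2 difference of control basal minus control luminal cells for 37 genes, with the standard error from limma as bars; filled points passed an adjusted p of 0.05 and open points did not. Irf1, Stat2, Ifitm2 and Ifitm3 lie to the right (basal higher) in both comparisons, and Psmb9 and Psmb8 lie farthest to the left.

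Among the transcription factors, Irf1 and Stat2 differed between control basal and control luminal cells, and of these Irf1 alone separated the lineages in both genotypes. Irf1 encodes an activator that interferon gamma induces. Its log2 levels in control basal cells were 8.38, 7.38 and 7.22. In control luminal cells they were 6.48, 5.76 and 6.21 in the Sca1-negative gate and 6.47, 4.84 and 5.95 in the Sca1-positive gate. No luminal array reached the lowest basal array. The difference was 1.51 (SE 0.37, adjusted p = 0.0135) against Sca1-negative and 1.91 (adjusted p = 0.00199) against Sca1-positive luminal cells. Without control basal replicate 1, the highest array, the first of these was 1.15 (adjusted p = 0.0693), and without control Sca1-negative luminal replicate 2 it was 1.32 (adjusted p = 0.0679). A second Irf1 probe set averaged 5.93 in control basal, 5.13 in control Sca1-negative and 4.32 in control Sca1-positive luminal cells, the same direction. With the mean of both probe sets the call against Sca1-negative cells was lost. With only the compared arrays both calls were lost, that against Sca1-positive cells at an adjusted p of 0.0666.

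In mutant cells Irf1 was at 7.83, 7.08 and 7.30 in GFP-positive basal cells and at 7.29, 6.63 and 7.27 in GFP-negative basal cells. It was at 4.98, 5.08 and 4.99 in Sca1-negative luminal cells and at 6.11 and 6.36 in Sca1-positive luminal cells. The 3 mutant Sca1-negative arrays were close together and below every control array of that gate, but the difference of -1.13 (SE 0.37) did not pass (adjusted p = 0.177). In this comparison 22.6% of all genes did not overlap. The gap between mutant GFP-positive basal and mutant Sca1-negative luminal cells was 2.39 (SE 0.37, adjusted p = 0.000384). The second Irf1 probe set averaged 6.14 in GFP-positive basal, 4.80 in mutant Sca1-negative luminal and 4.49 in mutant Sca1-positive luminal cells. Its gaps between basal and Sca1-negative luminal mutant cells, and between control (5.13) and mutant Sca1-negative luminal cells, were smaller. It also gave the opposite order of the mutant luminal gates, where the probe set used above averaged 5.02 and 6.23.

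Stat2, the STAT of the type I interferon complex, was at 5.47, 5.44 and 5.26 in control basal cells and between 3.64 and 4.18 on the 6 control luminal arrays. The differences were 1.54 (adjusted p = 0.0205) and 1.42 (adjusted p = 0.0283). The first was not called without control basal replicate 1 or 2 or without control Sca1-negative luminal replicate 2 or 3, and the second was not called with any one of its 6 arrays left out, with adjusted p up to 0.0776 and 0.0915. Mutant basal cells were lower than control basal cells, without passing, with 4.88, 3.99 and 4.12 in GFP-positive and 5.26, 4.03 and 4.17 in GFP-negative cells. Of these 6 arrays, 4 lay within the control luminal range, and Stat2 passed in neither comparison of mutant basal with mutant luminal cells. The mutant Sca1-positive luminal arrays disagreed, with 4.21 in replicate 1 and 6.21 in replicate 3. The remaining factors, Irf2, Irf3, Irf5, Irf7, Irf8 and Irf9, passed in no comparison. Irf9, the DNA-binding partner of STAT2, came nearest, with 4.14, 3.92 and 3.91 in GFP-positive and 4.77, 4.26 and 5.45 in GFP-negative mutant basal cells, a difference of -0.84 (adjusted p = 0.0581).

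The RNA sensor gene Ifih1, which encodes MDA5, was lower by 0.94 on the log2 scale in control basal than in control Sca1-positive luminal cells (adjusted p = 0.0108), and at 4.95, 4.75 and 4.07 in mutant Sca1-negative luminal cells against 3.49, 3.75 and 3.63 in mutant GFP-positive basal cells (difference -0.96, adjusted p = 0.0106). The first call was lost without control Sca1-positive luminal replicate 1 and the second without mutant Sca1-negative luminal replicate 1 or 2, with adjusted p of 0.0594 and up to 0.0645. With only the compared arrays both Ifih1 calls were lost. The control basal arrays were 3.57, 3.32 and 3.24, below every array median, so the size of the first difference carries little information. Dhx58, the gene of the related sensor LGP2, was lower by 0.40 in control basal than in Sca1-positive luminal cells (adjusted p = 0.0221), and that call was lost without control basal replicate 2 or 3 or control Sca1-positive replicate 1 or 2 (adjusted p up to 0.112). Its arrays ran from 2.71 to 3.41, below every array median, so the size of this difference carries little information.

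Bst2 encodes tetherin, which holds budding viruses at the cell surface. Its log2 levels were 5.35, 5.30 and 5.49 in control basal cells, 6.65, 6.50 and 6.65 in control Sca1-negative luminal cells, and 7.29, 6.48 and 7.69 in control Sca1-positive luminal cells. In mutants they were 5.14, 4.96 and 4.91 in GFP-positive basal, 5.07, 5.02 and 5.64 in GFP-negative basal, 6.24, 6.20 and 5.75 in Sca1-negative luminal, and 7.45 and 7.61 in Sca1-positive luminal cells. All 9 basal arrays lay below all 11 luminal arrays, and within the mutants both Sca1-positive arrays lay above all Sca1-negative arrays. Control basal cells were lower by 1.22 (SE 0.24, adjusted p = 0.00253) than Sca1-negative and by 1.78 (SE 0.24, adjusted p = 6.64e-05) than Sca1-positive luminal cells, and both calls held under all 16 alternatives.

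Rsad2 encodes viperin, which makes a chain-terminating nucleotide. It was at 3.34, 3.58 and 3.41 in control basal cells, near the array medians, and at 4.27, 4.75 and 5.0 in control Sca1-positive luminal cells, a difference of -1.23 (SE 0.26, adjusted p = 0.00381). Control Sca1-negative luminal cells gave 3.77, 4.93 and 3.75, with replicate 2 alone high. The mutant basal arrays stayed between 3.45 and 3.7 and the mutant Sca1-negative luminal arrays between 3.69 and 4.21, while the mutant Sca1-positive luminal arrays were at 5.46 and 5.66. The neighbouring gene Cmpk2, also interferon-induced, had a range of group means under 0.5, with arrays from 2.51 to 3.34, below every array median.

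Usp18 encodes the protease that removes ISG15 and that dampens type I interferon receptor signalling. It was at 3.61, 3.68 and 3.52 in control basal cells, 4.94, 4.13 and 4.50 in control Sca1-negative, and 5.07, 4.81 and 5.99 in control Sca1-positive luminal cells. Mutant basal arrays lay between 3.57 and 3.83, mutant Sca1-negative luminal arrays at 4.12, 4.03 and 4.34, and mutant Sca1-positive luminal arrays at 4.43 and 4.99. No basal array reached the lowest luminal array, and the basal arrays lay near the array medians. The control basal differences were -0.92 (adjusted p = 0.026) and -1.68 (adjusted p = 0.000191). The first was lost when any one of the control basal replicates, or Sca1-negative replicate 1 or 3, was left out (adjusted p up to 0.132), and the second held under all 16 alternatives.

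Ifi35, which encodes a cytoplasmic interferon-induced protein, was at 4.86, 4.12 and 4.67 in control basal, 5.03, 6.12 and 5.89 in control Sca1-negative, and 5.58, 5.88 and 4.65 in control Sca1-positive luminal cells. The control basal difference from Sca1-negative cells was -1.13 (adjusted p = 0.0287), and it was lost without control basal replicate 2 or 3 or Sca1-negative replicate 2 or 3 (adjusted p up to 0.14). Mutant basal arrays lay between 4.33 and 5.14, mutant Sca1-negative luminal arrays at 5.59, 5.07 and 5.23, and mutant Sca1-positive luminal arrays at 6.32 and 6.57. The last 2 are the highest of the 20 arrays. Xaf1, Parp9 and Parp14, the other interferon-induced genes of this role, passed in no comparison.

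Psmb9 gave the largest differences between control basal and control luminal cells among the 37 genes, while its fellow subunit Psmb10 passed in no comparison. Psmb9 and Psmb8 encode the inducible catalytic subunits LMP2 and LMP7. Psmb9 was at 4.72, 5.51 and 5.29 in control basal cells, at 7.48, 8.06 and 6.92 in control Sca1-negative luminal cells and at 8.09, 6.89 and 8.09 in control Sca1-positive luminal cells. Control basal cells were lower by 2.31 (SE 0.40, adjusted p = 0.00108) and by 2.51 (SE 0.40, adjusted p = 0.000406), and these calls held under all 16 alternatives. In mutant cells Psmb9 was at 6.60, 6.34 and 5.79 in GFP-positive basal, 5.41, 5.54 and 6.77 in GFP-negative basal, 7.06, 6.43 and 7.05 in Sca1-negative luminal, and 8.43 and 8.53 in Sca1-positive luminal cells. All 3 GFP-positive basal arrays lay above all control basal arrays, by 1.07 in the mean (SE 0.40), a difference that did not pass (adjusted p = 0.185). In that comparison 18.6% of all genes did not overlap.

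Psmb8 was at 6.58, 6.03 and 5.78 in control basal, 7.75, 7.52 and 7.38 in control Sca1-negative luminal, and 8.05, 8.07 and 7.90 in control Sca1-positive luminal cells. The 3 control groups did not overlap. The differences of control basal cells were -1.42 (adjusted p = 0.0103; -1.24 and 0.0506 without control basal replicate 3) and -1.88 (adjusted p = 0.000967). In mutants Psmb8 was at 6.84, 5.61 and 6.65 in GFP-positive basal, 6.38, 5.34 and 6.66 in GFP-negative basal, 7.05, 7.54 and 6.96 in Sca1-negative luminal, and 8.74 and 8.63 in Sca1-positive luminal cells. Psmb10, the third inducible subunit, ran from 5.93 to 7.44 over the 20 arrays and passed in no comparison. Of the constitutive counterparts, Psmb5 and Psmb6 did not pass between control basal and either control luminal group. Psmb7 was lower by 0.98 in control basal than in Sca1-positive luminal cells (adjusted p = 0.0319), a call not tested under the alternatives.

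Tap1 and Tap2 encode the subunits of the peptide transporter. Tap2 was at 4.65, 4.15 and 5.18 in control basal, 5.67, 6.03 and 6.03 in control Sca1-negative luminal, and 6.07, 6.56 and 5.78 in control Sca1-positive luminal cells. The differences were -1.25 (SE 0.25, adjusted p = 0.00316) and -1.48 (SE 0.25, adjusted p = 0.000633), called under all 16 alternatives. Tap1 was at 4.10, 4.62 and 4.50 in control basal, 3.95, 4.05 and 4.54 in control Sca1-negative and 4.49, 4.27 and 4.64 in control Sca1-positive luminal cells, with overlapping groups and no call. The difference between the 2 genes was not tested. The genes Psmb9, Tap1, Psmb8 and Tap2 lie next to each other in this order in the RefSeq gene table, and Psmb9 and Tap1 share most of the promoter window printed above. In mutants Tap2 was at 4.71, 4.53 and 4.83 in GFP-positive basal, 4.79, 4.51 and 4.03 in GFP-negative basal, 5.76, 5.40 and 5.67 in Sca1-negative luminal, and 6.65 and 6.86 in Sca1-positive luminal cells.

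Tapbp encodes tapasin, which couples TAP to MHC class I, and B2m encodes the class I light chain. Tapbp was at 6.98, 7.43 and 7.13 in control basal, 7.06, 6.96 and 7.37 in control Sca1-negative and 7.54, 7.23 and 7.31 in control Sca1-positive luminal cells, which overlapped. In mutants it was at 7.30, 6.81 and 6.77 in GFP-positive basal, 6.94, 6.83 and 7.25 in GFP-negative basal, 7.58, 7.46 and 7.66 in Sca1-negative luminal, and 8.19 and 7.66 in Sca1-positive luminal cells. Mutant GFP-positive basal cells were lower than mutant Sca1-positive luminal cells by 0.97 (adjusted p = 0.00408; difference -0.70 and adjusted p = 0.109 without mutant Sca1-positive replicate 1) and lower than mutant Sca1-negative luminal cells by 0.61 (adjusted p = 0.0433), a call that held under 4 of 16 alternatives. B2m was high on every array, from 10.2 to 11.2. Control basal cells, at 10.85, 10.23 and 10.69, were lower by 0.52 (SE 0.13, adjusted p = 0.0109) than control Sca1-positive luminal cells, at 11.11, 11.03 and 11.19. The difference was -0.34 (adjusted p = 0.0417) without control basal replicate 2, and it was not called with only the compared arrays (adjusted p = 0.15).

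**Figure D3:**
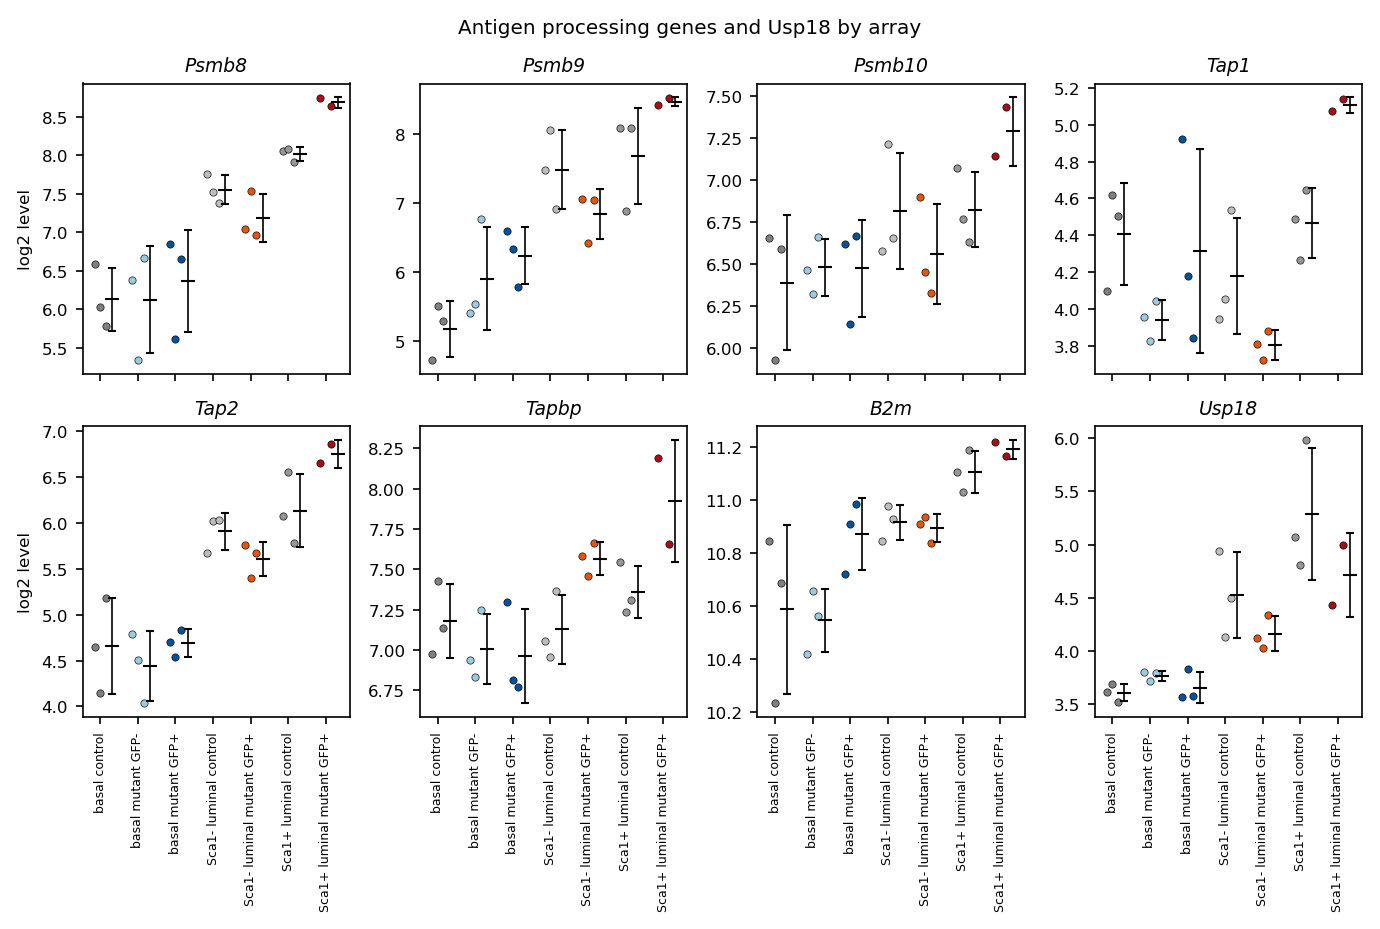
Log2 level by array in 7 groups for the 7 antigen processing genes and Usp18; points are arrays and the dash with its bar is the group mean with SD. For Psmb8 and Tap2 all 9 basal arrays lie below all 11 luminal arrays, and mutant Sca1-positive luminal arrays are the highest 2 for Psmb8, Psmb9 and Tap2.

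The mutant comparisons moved few of these genes. Ifitm3 was lower in GFP-positive mutant than in control cells in all 3 gates, Ifitm2 was lower in the basal gate, and no other of the 37 genes was called in any of the 5 mutant comparisons. In Sca1-negative luminal cells 1 of 37 genes was called, against 1.9% of all genes (0.682% lower). For mutant cells of the Sca1-positive gate the count was 1 of 37 (0.226% of all genes, 0.0451% lower), and for GFP-positive basal cells 2 of 37 (4.23% of all genes, 1.91% lower). GFP-negative basal cells differed from control basal cells in 0 of 37 genes (0.161% of all genes). In limma 3 genes were at an unadjusted p under 0.05, beside 1932 of all 19937. Within the mutant basal gate, GFP-positive and GFP-negative cells also differed in 0 of 37 (3.25% of all genes). Here 4 were at an unadjusted p under 0.05 in limma, beside 2687 of all 19937. The 2 basal comparisons with controls share the control basal arrays. The median difference of the 37 genes was -0.09, 0.09 and -0.05 in the Sca1-negative luminal, Sca1-positive luminal and GFP-positive basal comparisons, beside -0.03, -0.05 and -0.03 over all genes.

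Ifitm3 encodes a membrane protein that blocks fusion of viruses with endosomes. In Sca1-negative luminal cells its log2 levels were 10.64, 10.38 and 10.86 in controls and 9.61, 9.59 and 9.70 in mutants. Every mutant array lay below every control array, and 22.6% of all genes did not overlap in this comparison. Ifitm3 fell by 0.99 on the log2 scale (SE 0.13, adjusted p = 0.000526). The adjusted p lay between 3.65e-05 and 0.0295 under 16 alternatives. Cell type markers moved with this comparison: the mean of 7 hormone-sensing luminal markers was 6.65 to 6.93 in control and 5.18 to 5.44 in mutant arrays (4 called lower), that of 6 luminal progenitor markers was 8.24 to 8.57 and 8.83 to 9.01 (1 called higher), and that of 7 fibroblast markers was 4.49 to 4.61 and 4.03 to 4.21 (1 called lower). Their part in the Ifitm3 difference was not tested. In Sca1-positive luminal cells it was at 10.86, 10.57 and 10.96 in controls and at 10.08 and 9.93 in mutants, and it fell by 0.79 (SE 0.15, adjusted p = 0.0398). This call was lost without control replicate 1 (adjusted p = 0.0889), control replicate 3 (0.103), mutant replicate 1 (0.0907) or mutant replicate 3 (0.392), while the difference stayed between -0.90 and -0.71. With 1 mutant array left, that array is assumed to vary like those of the other groups. Markers moved in this gate too. The mean of 6 luminal progenitor markers was 6.23 to 6.43 in control and 7.08 to 7.11 in mutant arrays. That of 8 basal markers was 4.40 to 4.61 and 4.97 to 5.29, and that of 7 luminal markers 9.83 to 10.03 and 10.15 to 10.21. The means of hormone-sensing, immune, endothelial and fibroblast markers overlapped. The part of these shifts in the Ifitm3 decrease was not tested.

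In the basal gate Ifitm3 was at 11.51, 11.58 and 11.70 in control cells, 10.98, 11.12 and 10.79 in GFP-positive mutant cells and 11.42, 11.25 and 11.54 in GFP-negative mutant cells. The GFP-positive arrays lay below all others, and Ifitm3 fell by 0.64 (SE 0.13, adjusted p = 0.0101) against controls. Without GFP-positive replicate 3 the difference was -0.55 (adjusted p = 0.05), just outside the threshold. With only the compared arrays this call was also lost (adjusted p = 0.0858). GFP-negative cells differed from controls by -0.20 (SE 0.13, adjusted p = 0.687), and GFP-positive from GFP-negative cells by -0.44 (SE 0.13, adjusted p = 0.0935). The 3 decreases were not shown to differ from each other: the differences between them were 0.36, 0.16 and 0.20 (adjusted p = 0.574, 0.841 and 1).

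Of all 19937 genes, Ifitm3 was the only 1 called lower in all 3 comparisons of GFP-positive mutant with control cells, while 9 genes were called higher in all 3. This count depends on the Sca1-positive comparison, in which 9 genes were called lower and Ifitm3 lay near the threshold. It also depends on the basal comparison. With only the compared arrays, Ifitm3 was called in neither of these and only in the Sca1-negative gate.

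Ifitm2, a close paralog of Ifitm3, fell in GFP-positive basal cells and was called in neither luminal gate. Its levels were 10.67, 10.99 and 10.44 in control basal cells, 9.77, 9.60 and 9.55 in GFP-positive and 10.27, 9.92 and 10.06 in GFP-negative mutant basal cells. The 3 groups did not overlap, with GFP-negative cells between the others. Ifitm2 fell by 1.06 (SE 0.26, adjusted p = 0.0297) in GFP-positive cells. The call was lost without control basal replicate 1 or 2 or any GFP-positive replicate (adjusted p between 0.0602 and 0.109). In luminal cells Ifitm2 was at 9.07, 8.85 and 9.43 in control and 8.97, 8.77 and 9.46 in mutant Sca1-negative cells, and at 9.27, 8.35 and 9.52 in control and 9.11 and 9.54 in mutant Sca1-positive cells. The groups overlapped, with differences of -0.05 and 0.27. The difference between the basal and the luminal effect was -1.01 for Sca1-negative (SE 0.37, adjusted p = 0.285) and -1.33 for Sca1-positive cells (SE 0.39, adjusted p = 0.16), so the gates were not shown to differ.

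The other 2 Ifitm2 probe sets had means of 10.18 and 9.60 in control basal and 9.30 and 8.82 in GFP-positive basal cells, the same direction. In Sca1-positive luminal cells they averaged 8.96 and 8.80 in controls and 8.89 and 8.65 in mutants. That is opposite to the probe set used above (9.05 and 9.32). In Sca1-negative luminal cells they averaged 8.73 and 8.66 in controls and 8.79 and 8.43 in mutants. Ifitm1, which lies between Ifitm2 and Ifitm3, was at 5.93, 4.67 and 5.07 in control basal and 4.15, 4.18 and 3.85 in GFP-positive basal cells, a difference of -1.16 (SE 0.46) that did not pass (adjusted p = 0.203). A second Ifitm1 probe set averaged 4.45 in control, 4.04 in GFP-positive and 5.07 in GFP-negative basal cells, a smaller decrease in GFP-positive cells. The IFITM genes are similar in sequence, and whether their probe sets detect each other's transcripts was not tested. The mean of 6 luminal progenitor markers was 5.94 to 6.70 in GFP-positive basal and 4.96 to 5.39 in control basal cells, and that of 7 fibroblast markers was 4.65 to 4.87 and 4.14 to 4.27. The mean of 7 endothelial markers was 3.31 to 3.52 in GFP-positive and 3.57 to 4.19 in control basal cells, with 1 called lower. That of 7 luminal markers was 7.71 to 8.63 and 7.12 to 7.98 (3 called higher), and that of 8 basal markers was 9.08 to 9.56 and 9.59 to 9.71 (2 called lower). Their part in the Ifitm2 and Ifitm3 differences was not tested.

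**Figure D4:**
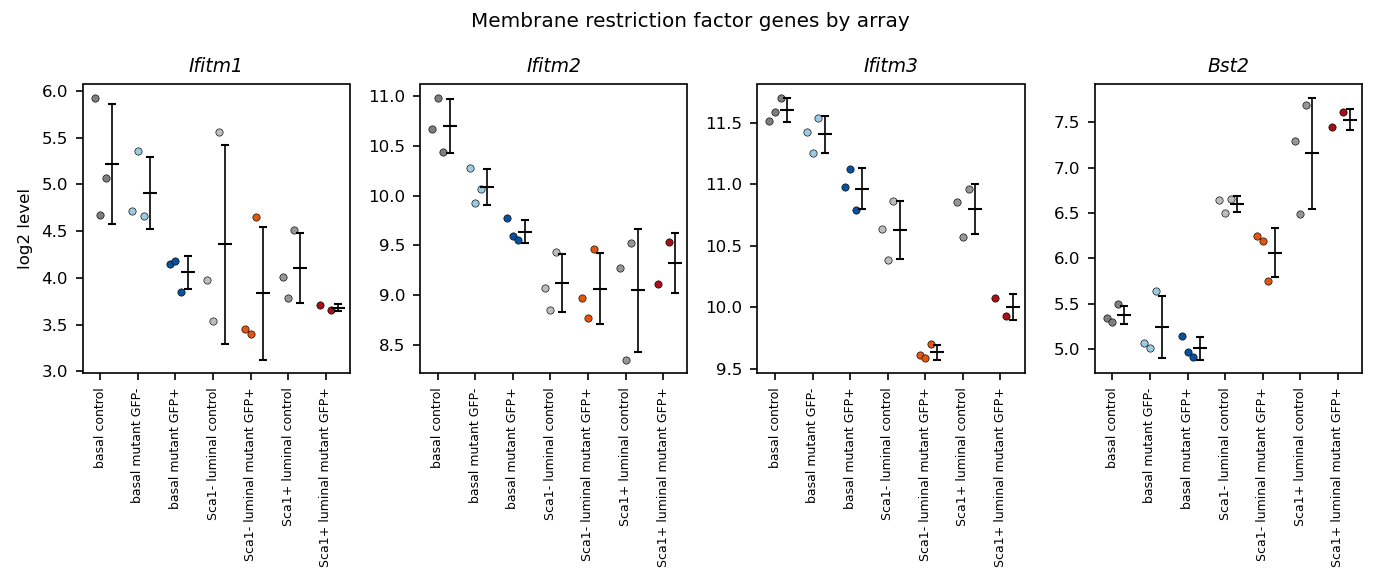
Log2 level by array in 7 groups for Ifitm1, Ifitm2, Ifitm3 and Bst2; points are arrays and the dash with its bar is the group mean with SD. Ifitm3 in each GFP-positive mutant group lies below the control group of its gate, by 0.99 (Sca1-negative luminal), 0.79 (Sca1-positive luminal) and 0.64 (basal).

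**Figure D5:**
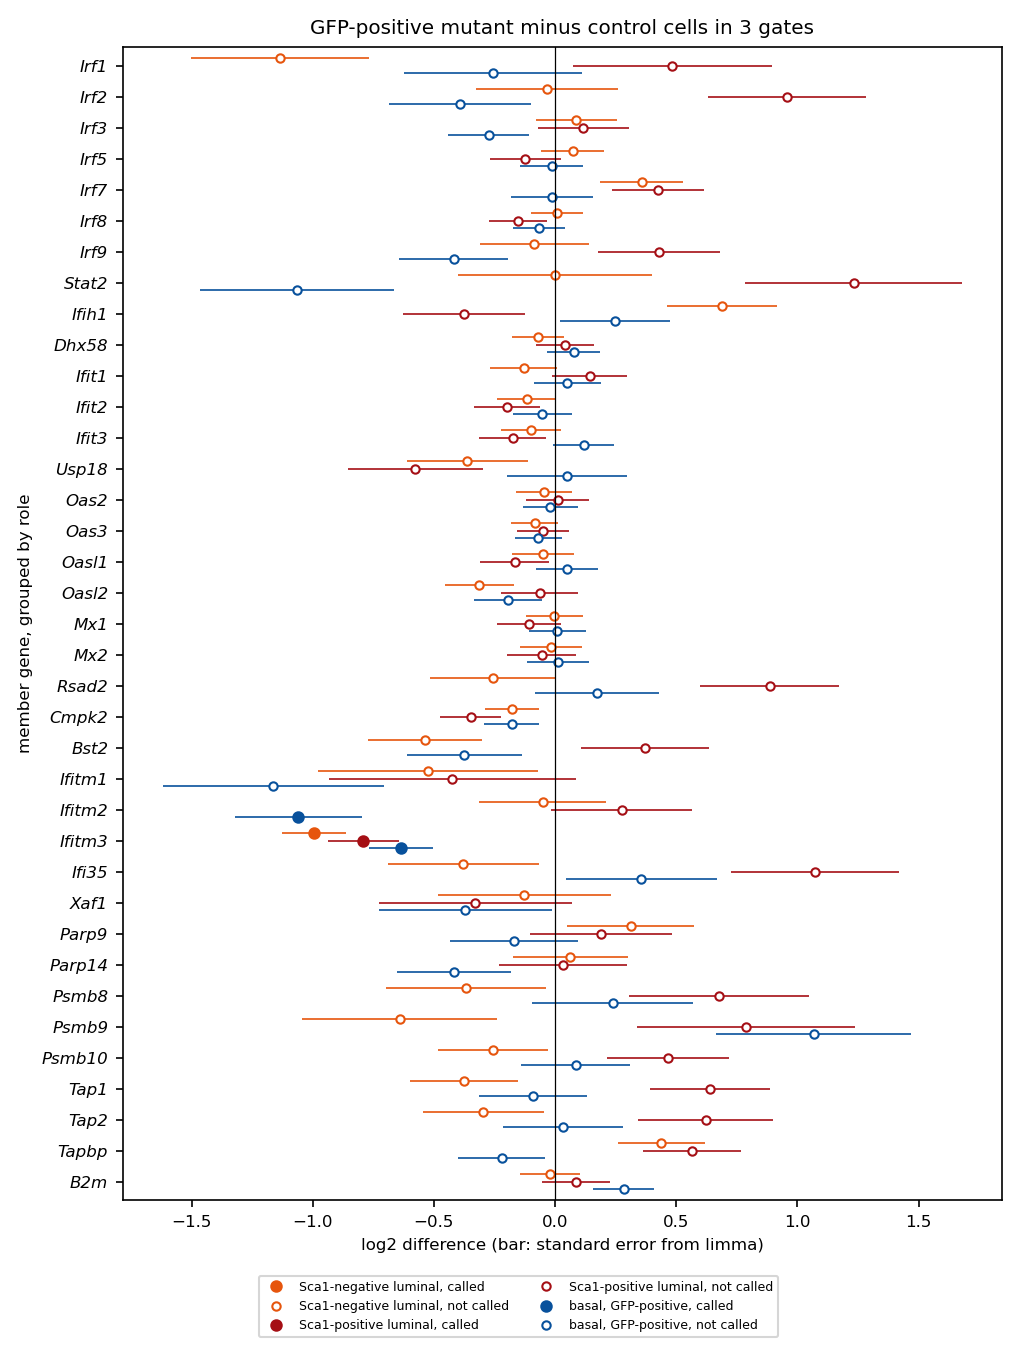
Log2 difference of GFP-positive mutant minus control cells in 3 gates for 37 genes, with the standard error from limma as bars; filled points passed an adjusted p of 0.05. The only filled points are Ifitm3 in all 3 gates and Ifitm2 in the basal gate, all to the left of 0.

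Most antigen processing genes lay on opposite sides of the control mean in the 2 luminal gates, a description of signs without a called difference. In mutant Sca1-positive luminal cells all 7 (Psmb8, Psmb9, Psmb10, Tap1, Tap2, Tapbp and B2m) lay above the control mean of that gate, with a median difference of 0.62 beside -0.05 over all genes, and none passed. In Sca1-negative luminal cells 6 of the 7 lay below the control mean, with a median of -0.30 beside -0.03, and none passed. Tapbp lay above the control mean in both gates. Marker means shifted in both gates, as given above, and their part was not tested. The share of all genes on each side was not computed, and no test over the 7 genes was made. Their highest group mean was in mutant Sca1-positive luminal cells for all 7, a group that had the highest mean for 13.5% of all genes and that rests on 2 arrays. It was also there for 7 of the 30 other members. The mean of 3 constitutive proteasome counterparts (9.47) and that of 8 other class I assembly and peptide supply genes (8.08) were highest there too. So were the means of interferon signal transduction genes (7.41), upstream sensing genes (4.87) and negative regulators (6.11). Those of further interferon-induced genes (4.75) and of class I heavy chains and activator (5.51) were as well. The means of interferon ligands, of interferon receptors and of 6 MHC class II pathway genes were not. The class II mean was 3.41 to 3.76 over the arrays, near or below the array medians, so it carries little information. The difference between the 2 luminal effects was called for 0 of 37 genes in limma (0.14% of all genes). Of the 37, 10 were at an unadjusted p under 0.05, beside 1129 of all 19937. The smallest adjusted p was 0.431, for Ifih1.

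Within the mutants the luminal gates differed in 5 genes, all higher in Sca1-positive cells (4.08% of all genes were called, 2.35% higher). Rsad2 was higher by 1.67 (SE 0.29, adjusted p = 0.00258), Psmb8 by 1.5 (adjusted p = 0.0304), Bst2 by 1.47 (adjusted p = 0.00369), Tap1 by 1.30 (adjusted p = 0.00556) and Tap2 by 1.14 (adjusted p = 0.0277). For Tap1 the arrays were 5.08 and 5.14 against 3.81, 3.72 and 3.88. For all 5 genes the Sca1-positive arrays lay above the Sca1-negative arrays, and 34.6% of all genes did not overlap in this comparison. The 5 were picked as called, so the separation adds no support. Without mutant Sca1-positive replicate 3, only 1 gene was called (Rsad2), with Bst2 at an adjusted p of 0.0567, Tap1 at 0.0644, Psmb8 at 0.161 and Tap2 at 0.245. Without mutant Sca1-negative replicate 3, 3 genes were called, with Psmb8 at 0.108 and Tap2 at 0.0667. Psmb8 was also not called without mutant Sca1-negative replicate 1 (0.0905) or Sca1-positive replicate 1 (0.189), nor Tap2 without mutant Sca1-negative replicate 2 (0.102) or Sca1-positive replicate 1 (0.102). In controls the same gates differed in 0 of 37 genes (0.762% of all genes), with a smallest adjusted p of 0.282, for Usp18. An unadjusted p under 0.05 in limma was found for 3, beside 1563 of all 19937 genes. The subtype markers of these gates differed too. The mean of 7 hormone-sensing markers was 7.28 in Sca1-positive and 5.31 in Sca1-negative cells of the mutants (5 called higher), and 7.33 and 6.76 in controls (0 called by limma, 3 at an unadjusted p under 0.05). That of 6 luminal progenitor markers was 7.10 and 8.94 in mutants (5 called lower), and 6.30 and 8.40 in controls (4 called lower). Their part in the 5 differences was not tested.

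Between GFP-positive mutant basal and luminal cells, 6 of 37 genes differed from Sca1-negative (9.59% of all genes, 4.43% higher and 5.16% lower) and 9 from Sca1-positive luminal cells (10.7%, 4.49% higher and 6.16% lower). These comparisons share the GFP-positive basal arrays. Against Sca1-negative cells, Irf1 and Ifitm3 were higher, by 2.39 and 1.33, and Bst2 (-1.06), Ifih1 (-0.96), Tap2 (-0.92) and Tapbp (-0.61) were lower. Without mutant Sca1-negative replicate 1, 3 genes were called, with Ifih1 at an adjusted p of 0.0645, Tap2 at 0.101 and Tapbp at 0.114. The Ifih1 call was also lost without Sca1-negative replicate 2, the Tap2 call without Sca1-negative replicate 3 or GFP-positive basal replicate 1 or 2, and the Tapbp call without 4 further arrays (adjusted p up to 0.159). Against Sca1-positive cells, Ifitm3 was higher by 0.96, and Bst2 (-2.52), Psmb8 (-2.32), Psmb9 (-2.23), Tap2 (-2.07), Rsad2 (-1.95), Ifi35 (-1.54), Usp18 (-1.06) and Tapbp (-0.97) were lower. Without mutant Sca1-positive replicate 3, Ifi35 was at -1.41 (adjusted p = 0.0858) and Usp18 at -0.78 (0.278), and Usp18 was also not called without GFP-positive basal replicate 1 or 3 (0.058 and 0.0559). The mutant effect in the basal gate was compared with that in the Sca1-negative and Sca1-positive luminal gates. No member differed in either test (1.55% and 1.09% of all genes). Of the 37, 3 and 6 were at an unadjusted p under 0.05 in limma, beside 2025 and 2028 of all 19937. Psmb9 had the smallest adjusted p in the first (0.211), with basal and luminal effects of 1.07 and -0.64. Stat2 had the smallest in the second (0.0967), with a value of 6.21 in mutant Sca1-positive replicate 3 alone.

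Of 94 further genes of the pathway, from interferons and their receptors to class I assembly, 80 were measured. In the 2 luminal mutant comparisons and in GFP-negative basal cells, 0 of the 80 were called by limma (1.9%, 0.226% and 0.161% of all genes). Of the 80, 7, 7 and 6 were at an unadjusted p under 0.05, beside 2235, 1786 and 1932 of all 19937. In GFP-positive basal cells against controls 3 of the 80 were called, no larger a share than the 4.23% of all genes. Sting1, the adaptor of cytosolic DNA sensing, fell by 1.21 (SE 0.29, adjusted p = 0.0259), with 4.56, 4.42 and 4.81 against 5.82, 5.66 and 5.94. Samhd1, a dNTP hydrolase that restricts viruses, fell by 0.82 (SE 0.18, adjusted p = 0.0161), with 5.91, 6.22 and 5.89 against 6.66, 6.72 and 7.11. Psme2, a proteasome activator subunit, rose by 1.23 (SE 0.27, adjusted p = 0.0168), with 7.51, 7.65 and 7.55 against 6.73, 5.76 and 6.54. The groups did not overlap for these 3 genes, which were picked as called, nor for 18.6% of all genes. Against the GFP-negative basal cells 4 of the 80 were called (3.25% of all genes), these 3 in the same directions (-1.41, -0.90 and 1.07), together with the class I chaperone gene Pdia3 (0.81, adjusted p = 0.0349). Both comparisons share the GFP-positive arrays. Whether the calls of Sting1, Samhd1, Psme2 and Pdia3 hold under the alternatives was not tested.

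Iigp1, an interferon-gamma-induced GTPase gene, was at 7.37 and 6.90 in mutant Sca1-positive luminal cells, above its 3.41 to 5.83 on all other arrays. It was higher there by 1.73 than in controls (SE 0.40, adjusted p = 0.112). The difference between the basal and the Sca1-positive mutant effects was called for 2 of the 80 genes (1.09% of all genes). These were Iigp1 (-2.39, adjusted p = 0.0414) and Samhd1 (-1.28, adjusted p = 0.0332). Whether these calls hold under the alternatives was not tested. Ifnar1 and Ifngr1, subunits of the type I and type II interferon receptors, and Nlrc5, the activator of class I genes, passed in none of the 5 mutant comparisons.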

How the data were processed

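The authors deposited log2 probe set values, 1 column per array, which ran from 1.98 to 13.1 with none missing; per the submitters' processing notes the affy package was used, and how they were normalized and filtered, and on which genome build, is not given in the sources used here. These log2 values entered the fit as deposited. Probe sets naming a single gene (21640 of 34760) gave 19937 genes. One linear model with 7 group means was fitted to all genes and 20 arrays with the R package limma (version 3.58.1, R version 4.3.3, default eBayes). Its 14 contrasts were 5 mutant comparisons, 6 lineage comparisons and 3 interactions. Called means that the 2-sided p, adjusted by Benjamini-Hochberg over all genes of that contrast, was under 0.05. The procedure was tested on simulated data with independent noise and genes changed in the mutant Sca1-negative luminal group alone. Recovery of changes was not tested for interactions, the group with 2 arrays or gates from shared pools. The p-values measure the spread between separately sorted pools, and the number of arrays limits precision. Pools can supply several gates, which the fit treats as independent. Same-numbered arrays showed little pairing: of 57 pairs in different groups, 5 correlated over 0.1 in their deviations (median 0.02). Many of these pairs join control with mutant groups, which come from different mice. The 2 control luminal gates gave 0.078, 0.103 and 0.126, and control basal with control Sca1-negative luminal cells 0.026, 0.006 and 0.018. Weak pairing of some gates is therefore not excluded. Alternatives were array weights, only the compared arrays, quantile normalization, trended robust eBayes, a filter at a mean of 4, the mean of all probe sets, the replicate block, leaving out each array, and 2 array exclusions chosen after seeing the data. The genes and lists were chosen with earlier results of these data known. Values by array were given for genes called in a mutant comparison or interaction, the 10 with the widest range of group means and the 5 with the highest mean, and for others singled out after their values were seen.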

Additional observations from a re-analysis of the deposited data

How the results depend on the processing

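Of 47 called differences among the 37 genes, 24 were called under every alternative that could be fitted, and 0 reversed. The counts of called genes that moved by over 1.5 times were as follows. Mutant Sca1-negative luminal cells against controls gave 1 gene, and 2 with array weights, with only the compared arrays and with the replicate block. Mutant Sca1-positive luminal cells gave 1, and 0 with only the compared arrays and with genes of a mean under 4 left out, a filter that leaves 9171 genes and 22 of the 37. GFP-positive basal cells against controls gave 2, and 1 with only the compared arrays, where the Ifitm3 call was lost. GFP-positive against GFP-negative basal cells gave 0, but 1 with the filter and 2 with both narrow-spread arrays and GFP-negative basal replicate 2 left out. Mutant Sca1-positive against Sca1-negative luminal cells gave 5, and 9 with array weights and 8 with only the compared arrays. The cause was not tested. The replicate block moved no other count by over 1.5 times, and the correlation of replicate number as a random block was 0.01.

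Leaving out 1 array at a time gave 1 to 2, 0 to 1 and 0 to 2 called genes in the Sca1-negative luminal, Sca1-positive luminal and GFP-positive basal comparisons with controls, and 0 to 0 in GFP-negative basal cells. It gave 0 to 1 for GFP-positive against GFP-negative basal cells, 1 gene being called without GFP-negative basal replicate 2. The control comparisons gave 7 to 10 (basal against Sca1-negative luminal), 10 to 14 (basal against Sca1-positive luminal) and 0 to 1 (between luminal gates). The mutant comparisons gave 3 to 6, 7 to 9 and 1 to 4. The interactions gave 0 to 0, 0 to 1 and 0 to 0, with 1 gene called without mutant Sca1-positive luminal replicate 1. Genes with levels near the array medians carry little signal over background.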
